A study of Homo sapiens with 12 samples.

Results

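The E2F transcription factors and the RB family of pocket proteins were followed in RNA-seq of head and neck squamous cell carcinoma (HNSCC) cells. The members were 10 genes matched by gene name and chosen with earlier results of these data known, E2F1, E2F2, E2F3, E2F4, E2F5, E2F7, E2F8, RB1, RBL1 and RBL2. Each was present once in the table of 29657 genes of SCC15 cells and once in the table of 31055 genes of SCC25 cells, and all 10 passed the filter for testing in both. SCC15 and SCC25 are established oral squamous cell lines, labelled wild type (WT). For each line, 3 libraries came from cells given squamocin, an annonaceous acetogenin that the labels call ACGs, and 3 from cells given the solvent DMSO. The labelled time was 24 h in all 4 groups, and the methods of the study name a squamocin dose of 10 µg/mL. Nothing in the labels says that the 3 libraries of a group came from separate cultures, so p-values measure the spread between these libraries, which may be technical.

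E2F factors bind DNA mostly as dimers with a DP protein and set the transcription of genes for entry into S phase. E2F1, E2F2 and E2F3 are known as activators, E2F4 and E2F5 act mainly as repressors together with p107 and p130, and E2F7 and E2F8 are atypical repressors that bind without a DP partner. The pocket proteins RB1, RBL1 (p107) and RBL2 (p130) hold E2F factors in check until cyclin-dependent kinases phosphorylate them. Loss of this brake, through CDKN2A or the cyclin D kinases, is common in HNSCC.

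E2F factors are also known to act on their own genes, so the stretches next to the RefSeq start sites that hold an E2F motif are shown first. Of the 10 members, 8 had a promoter in the RefSeq table (GRCh38.p14), with 10 windows, and 4 of them held TTTCGCGC, TTTGGCGC or TTTCCCGC on either strand in the 250 bases before the start. Below are the 120 bases of each that include the motif, 5′ to 3′ on the strand of the gene, with the motif in capitals. The E2F1 stretch lies at chr20:33686386-33686505 on the minus strand, E2F2 at chr1:23531234-23531353 on the minus strand, E2F3 at chr6:20401759-20401878 on the plus strand and RBL1 at chr20:37095998-37096117 on the minus strand.
E2F1: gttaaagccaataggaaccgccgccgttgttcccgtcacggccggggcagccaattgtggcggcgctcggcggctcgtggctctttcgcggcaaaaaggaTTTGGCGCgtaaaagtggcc
E2F2: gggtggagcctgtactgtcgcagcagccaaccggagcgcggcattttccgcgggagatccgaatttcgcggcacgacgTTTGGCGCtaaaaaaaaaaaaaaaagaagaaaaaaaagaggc
E2F3: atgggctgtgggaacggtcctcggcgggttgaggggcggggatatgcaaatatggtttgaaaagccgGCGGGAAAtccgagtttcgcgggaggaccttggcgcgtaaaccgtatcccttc
RBL1: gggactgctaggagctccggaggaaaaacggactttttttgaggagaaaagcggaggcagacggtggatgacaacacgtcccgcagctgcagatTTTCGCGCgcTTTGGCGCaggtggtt

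TTTGGCGC ended 13 bases before the start of E2F1 and 35 bases before that of E2F2. RBL1 held TTTCGCGC and TTTGGCGC side by side, and E2F3 held TTTCCCGC on the opposite strand, so it reads GCGGGAAA in the stretch. At least 1 of the 3 motifs stood in 2.32% of all 35116 promoter windows of the same length and in 17 of 57 windows of the G1/S target genes described further on (29.8%). The windows of E2F4, E2F7, RB1 and RBL2 held none of these letters, and E2F5 and E2F8 had no window in the table. The windows listed for RB1 and RBL2, and the further window of E2F3, start inside the gene. The RefSeq starts of E2F1 and E2F7 lie slightly inside the gene of the deposited table. A match is a description of the letters and not of binding.

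The libraries held 16665563 to 22748845 reads assigned to genes. Among SCC15 cells, squamocin replicate 3 stood apart from replicates 1 and 2, with a chi-square per degree of freedom of 71.6 and 63.5 against 1.72 to 11.02 for all other pairs of replicates, and results that turn on it are given with and without it. To a lesser degree SCC25 squamocin replicate 3 also stood apart, at 7.39 and 11.02 against 2.46 between replicates 1 and 2. Of 7 squamous epithelial markers, 5 in SCC15 and 6 in SCC25 had a mean of at least 100 in DMSO, but KRT5 (9.50) and TP63 (17.5), which define basal squamous cells, were near 0 in SCC15. Leukocyte markers averaged at most 22.8 in any DMSO group. The summed fibroblast markers went from 623 to 409 with squamocin in SCC15 and from 603 to 966 in SCC25, the summed endothelial markers from 170 to 73.2 and from 271 to 27.7, and their part in the results was not tested. The fibroblast sums were mostly COL3A1 (445 to 259) and COL1A1 (151 to 135) in SCC15 and COL1A1 (576 to 938) in SCC25. COL1A2, PDGFRA and LUM averaged at most 16.3 in any group. The SCC15 endothelial sum was mostly PECAM1 (166 to 72.0).

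In SCC15 cells, 5 members fell with squamocin (E2F2, E2F3, E2F8, RB1 and RBL1), E2F4 and E2F5 rose, and E2F1, E2F7 and RBL2 did not pass the threshold. In SCC25 cells, 5 members fell (E2F1, E2F2, E2F8, RBL1 and RBL2), E2F4, E2F5 and E2F7 rose, and E2F3 and RB1 did not pass. The lines shared 3 falling members (E2F2, E2F8 and RBL1) and 2 rising ones (E2F4 and E2F5), and no member passed in opposite directions. Of the 14454 genes tested in both lines, 18.6% were lower in both, 22.1% higher in both and 10.1% passed in opposite directions. All calls rest on limma with an adjusted p under 0.05 over all genes tested. The same rule called 30.9% of the 15902 genes tested in SCC15 higher and 30.0% lower, and 38.3% of the 16539 genes tested in SCC25 higher and 38.5% lower. The members' counts of 2 and 5 of 10 in SCC15 and 3 and 5 of 10 in SCC25 are to be read against these shares. Their median log2 fold change was -0.34 in SCC15 and -0.22 in SCC25, with 0.01 and -0.01 over all genes. The members that passed were the same ones whose 3 squamocin libraries all lay above or all below the 3 DMSO libraries. Such full separation upward was seen for 35.7% and downward for 34.9% of all genes in SCC15, and for 39.4% and 39.6% in SCC25. An exact permutation test of 3 against 3 libraries cannot give a p under 0.1, which is the value for each separated member.

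Each deposited value is a number of reads over a size factor common to its library, called the normalized count here. The libraries' summed normalized counts were not equal, with a group median of 15511759 for DMSO against 20826159 for squamocin in SCC15, and 18272805 against 21182014 in SCC25. With libraries scaled to equal totals instead, the median of all genes moved to -0.48 in SCC15 and -0.22 in SCC25, and the calls over all genes turned from 4921 higher and 4773 lower to 2357 and 8033 in SCC15, and from 6335 and 6367 to 5032 and 7839 in SCC25. All members moved down by about this shift, which is named below where it turned a direction. In bulk RNA, fewer cells with a transcript and less of it per cell cannot be told apart.

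**Figure D1:**
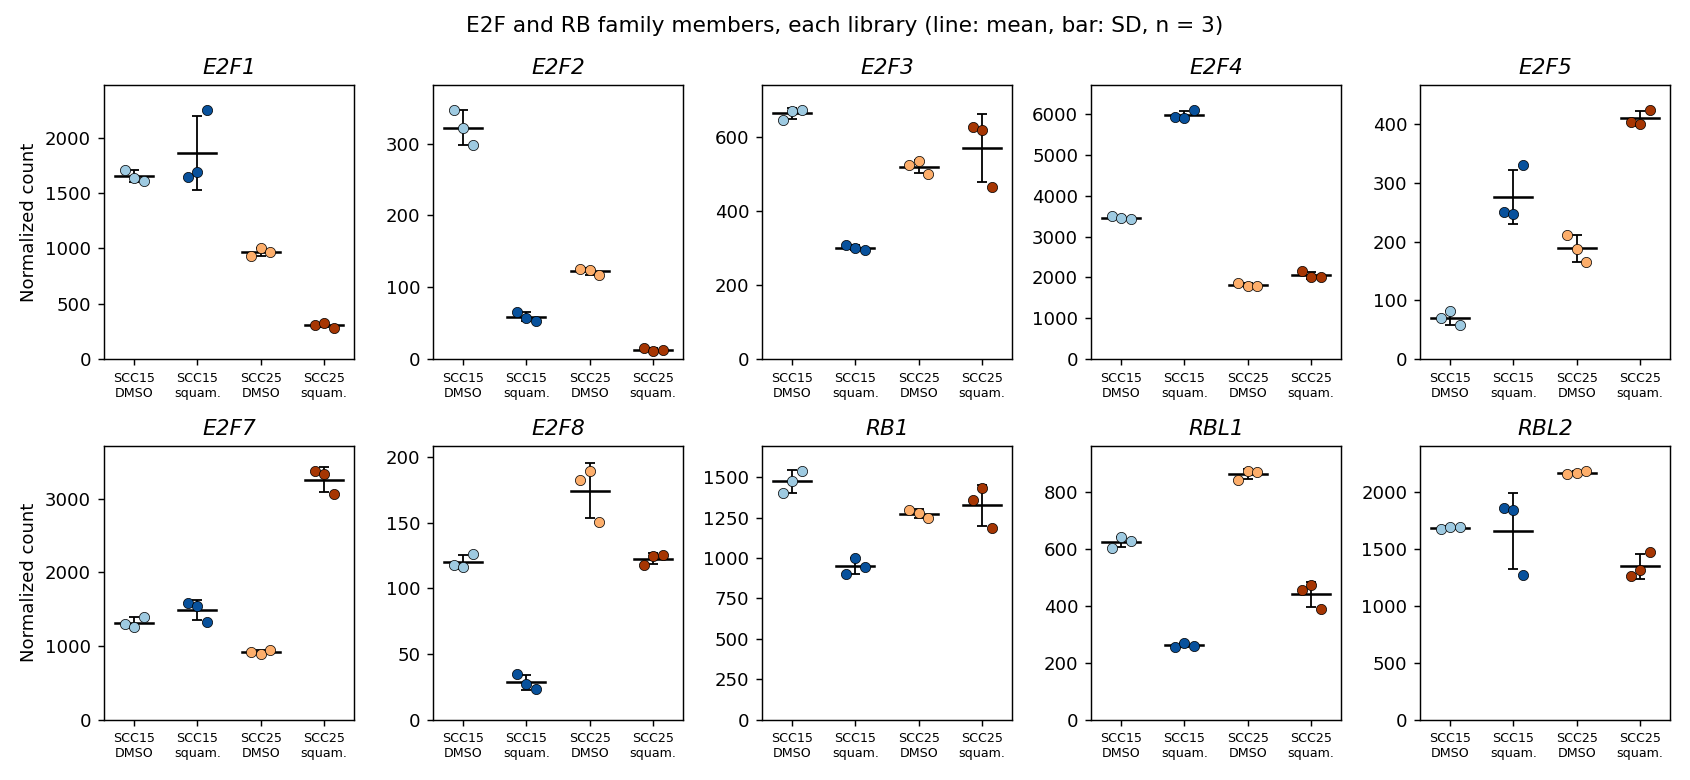
Normalized counts of the 10 members in every library, by cell line and treatment, with each vertical axis starting at 0. Points are libraries (n = 3 a group), the line is the mean and the bar the SD. E2F7 separates widely in SCC25 but overlaps in SCC15, and E2F3 and RB1 do the reverse.

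Among the activators, E2F2 fell most in both lines. In SCC15 it was counted at 347, 322 and 299 in DMSO and at 66.1, 57.0 and 53.5 with squamocin (log2 fold change -2.44 ± 0.14 SE, adjusted p = 1.99e-05 by limma). In SCC25 the DMSO libraries held 126, 124 and 117 and the squamocin libraries 15.3, 11.4 and 12.2, which stand for only 11 to 12 reads (-3.15 ± 0.20, adjusted p = 1.97e-08 by limma). Every squamocin library was far below every DMSO library, at 0.185 of the DMSO level in SCC15 and 0.113 in SCC25.

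E2F1, the activator also known for driving apoptosis when unrestrained, split the lines. SCC25 cells had 929, 998 and 964 in DMSO but 308, 324 and 284 with squamocin (log2 fold change -1.66 ± 0.07 SE, adjusted p = 4.07e-10 by limma), and the groups were well apart. SCC15 cells had 1710, 1635 and 1605 in DMSO and 1644, 1694 and 2251 with squamocin, so 2 squamocin libraries lay among the controls and replicate 3 above them. The SCC15 log2 fold change was 0.16 ± 0.13 SE (adjusted p = 0.311 by limma), 0.02 without squamocin replicate 3 (adjusted p = 0.77), and turned to -0.34 (adjusted p = 0.0105) with equal library totals. The responses differed by 1.82 between the lines (SCC15 minus SCC25, adjusted p = 9.73e-07 by limma).

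E2F3, the third activator, behaved the other way round. In SCC15 it was at 648, 671 and 674 in DMSO and at 307, 301 and 294 with squamocin (log2 fold change -1.14 ± 0.08 SE, adjusted p = 5.33e-05 by limma), a tight fall to 0.453 of the DMSO level. In SCC25 it was at 525, 535 and 500 in DMSO and at 627, 620 and 465 with squamocin, where replicates 1 and 2 lay above the controls and replicate 3 below them (0.12 ± 0.10, adjusted p = 0.298 by limma). Without SCC25 squamocin replicate 3 the rise passed (0.26, adjusted p = 0.0012), whereas equal library totals turned it to -0.09 (adjusted p = 0.431). The difference between lines was -1.26 (adjusted p = 1.69e-05 by limma).

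The repressors E2F4 and E2F5 both rose. E2F4, the most abundant E2F factor in many cells, went from 3500, 3448 and 3438 in DMSO to 5922, 5892 and 6102 with squamocin in SCC15 (log2 fold change 0.79 ± 0.08 SE, adjusted p = 0.000167 by limma). In SCC25 the step was small, from 1858, 1793 and 1777 to 2148, 2002 and 2003 (0.18 ± 0.05, adjusted p = 0.00395 by limma). The groups did not overlap in either line, but the SCC25 value with equal library totals was on the other side of 0 (-0.03, adjusted p = 0.597), while the SCC15 rise kept its sign (0.29, adjusted p = 0.021).

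E2F5, a partner of p130 and p107, had the largest rise of any member in SCC15, from 70.0, 82.2 and 58.5 to 250, 247 and 330 normalized counts. In SCC25 it went from 211, 188 and 166 to 404, 400 and 424. All squamocin libraries lay above the controls, by 1.96 ± 0.18 on the log2 scale in SCC15 (adjusted p = 0.000126 by limma) and 1.12 ± 0.10 in SCC25 (adjusted p = 3.83e-07). The neighbouring gene RBIS covers 16.6% of the exonic bases of E2F5 on the other strand, and it was also higher with squamocin (0.91 in SCC15 and 0.55 in SCC25). Whether the counting used strand is not given in the sources used here, so reads of the shared bases may belong to either gene.

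The atypical factors did not move together. E2F7 in SCC25 climbed from 916, 890 and 949 in DMSO to 3382, 3332 and 3065 with squamocin (log2 fold change 1.83 ± 0.05 SE, adjusted p = 1.25e-11 by limma), the largest rise of a member in that line. In SCC15 it was at 1299, 1256 and 1399 in DMSO and at 1592, 1549 and 1333 with squamocin, where replicate 3 fell among the controls (0.17 ± 0.10, adjusted p = 0.161 by limma). Without that library the SCC15 difference was 0.25 and passed (adjusted p = 0.000329), while with equal library totals it was -0.32 (adjusted p = 0.0868). The lines differed by -1.65 (SCC15 minus SCC25, adjusted p = 2.1e-07 by limma), so the response of E2F7 was larger in SCC25.

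E2F8, which can pair with E2F7 and represses an overlapping set of genes, fell in both lines. SCC15 cells had 118, 116 and 127 in DMSO and 34.8, 27.4 and 23.6 with squamocin (19 to 30 reads), and SCC25 cells had 183, 190 and 150 against 118, 125 and 125. The separation was wide in SCC15 (log2 fold change -2.05 ± 0.19 SE, adjusted p = 0.000129 by limma) and narrower in SCC25 (-0.50 ± 0.12, adjusted p = 0.00258). The difference of -1.55 passed the test (adjusted p = 7.95e-05 by limma).

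Of the pocket proteins, RBL1 (p107), itself an E2F target, fell in both lines. It went from 605, 642 and 629 in DMSO to 257, 271 and 259 with squamocin in SCC15 (log2 fold change -1.25 ± 0.09 SE, adjusted p = 4.37e-05 by limma), and from 845, 876 and 873 to 458, 475 and 390 in SCC25 (-0.98 ± 0.08, adjusted p = 1.31e-07). No library crossed between the groups. RBL1 was the only member whose response did not pass the test of a difference between lines (-0.27, adjusted p = 0.0694 by limma). That p lay close to the threshold and crossed it without SCC15 squamocin replicate 3 (-0.26, adjusted p = 0.0423) or without SCC25 squamocin replicate 3 (-0.36, adjusted p = 0.0098).

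RB1, the retinoblastoma tumour suppressor, fell in SCC15 from 1402, 1477 and 1540 to 901, 999.7 and 947 (log2 fold change -0.63 ± 0.08 SE, adjusted p = 0.000644 by limma). In SCC25 the DMSO libraries held 1297, 1280 and 1247 and the squamocin libraries 1356, 1435 and 1182, on both sides of the controls (0.05 ± 0.07, adjusted p = 0.502 by limma). The SCC25 value was unstable, at 0.13 (adjusted p = 0.0142) without squamocin replicate 3, at -0.0093 (adjusted p = 0.903) without squamocin replicate 2 and at -0.16 (adjusted p = 0.0387) with equal library totals. The difference between the lines was -0.68 (adjusted p = 0.000248 by limma).

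RBL2 (p130), the pocket protein typical of resting cells, fell in SCC25 and not past the threshold in SCC15, and the test of the difference between lines passed (0.64, adjusted p = 0.00707 by limma). SCC25 cells had 2154, 2165 and 2186 in DMSO and 1257, 1311 and 1470 with squamocin (log2 fold change -0.69 ± 0.06 SE, adjusted p = 2.33e-07). SCC15 cells had 1674, 1690 and 1693 in DMSO and 1862, 1839 and 1267 with squamocin (-0.05 ± 0.15, adjusted p = 0.803). Here squamocin replicates 1 and 2 lay above all controls and replicate 3 below them, and without replicate 3 the value was 0.13 and passed (adjusted p = 0.0142). AKTIP covers 7.51% of the exonic bases of RBL2 on the other strand, with log2 fold changes of 0.38 in SCC15 and 0.01 in SCC25.

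**Figure D2:**
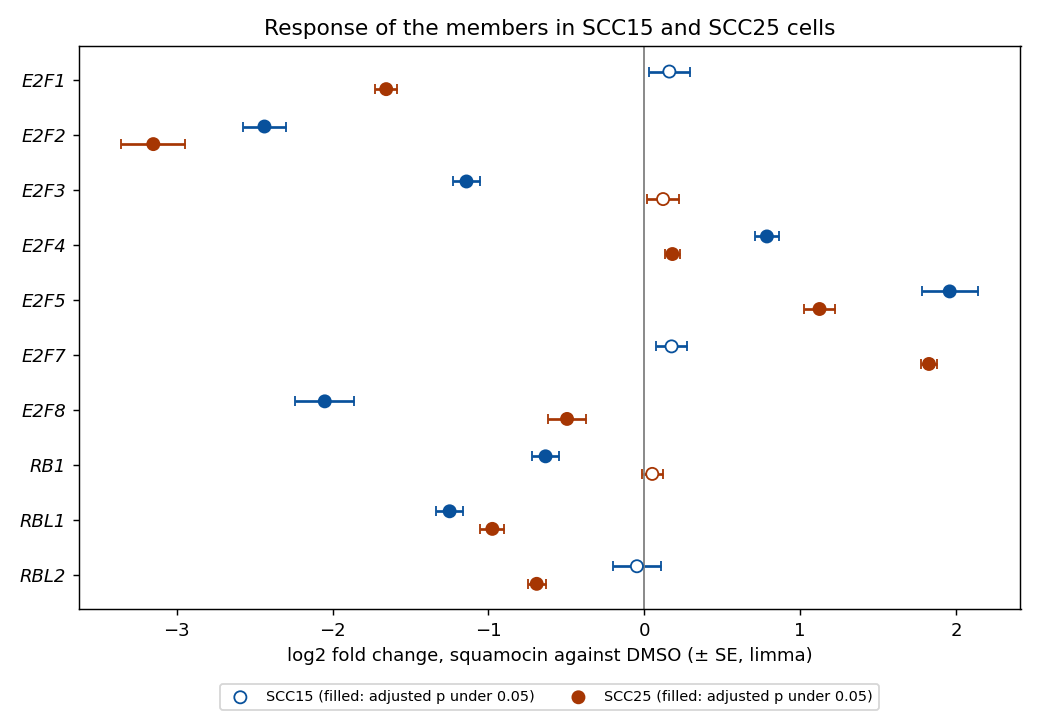
The log2 fold change of each member with squamocin against DMSO, with its SE, in SCC15 (blue) and SCC25 (brown); filled points passed an adjusted p of 0.05. The lines lie far apart for E2F1 (0.16 and -1.66), E2F3 (-1.14 and 0.12), E2F7 (0.17 and 1.83) and E2F8 (-2.05 and -0.50).

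Over both lines, the response of 9 of the 10 members differed by the contrast of the 4 groups, where 52.2% of 14454 genes tested in both lines did so. In 5 members the SCC25 value was the higher one or the less negative one (E2F3, E2F7, E2F8, RB1 and, short of the threshold, RBL1), and in the other 5 the SCC15 value was (E2F1, E2F2, E2F4, E2F5 and RBL2). E2F2 and RBL2 lost this call with equal library totals (0.42 with adjusted p = 0.151, and 0.35 with adjusted p = 0.226 by limma), and E2F2 also with 10 in place of 1 added before the logarithm (0.26, adjusted p = 0.236).

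**Figure D3:**
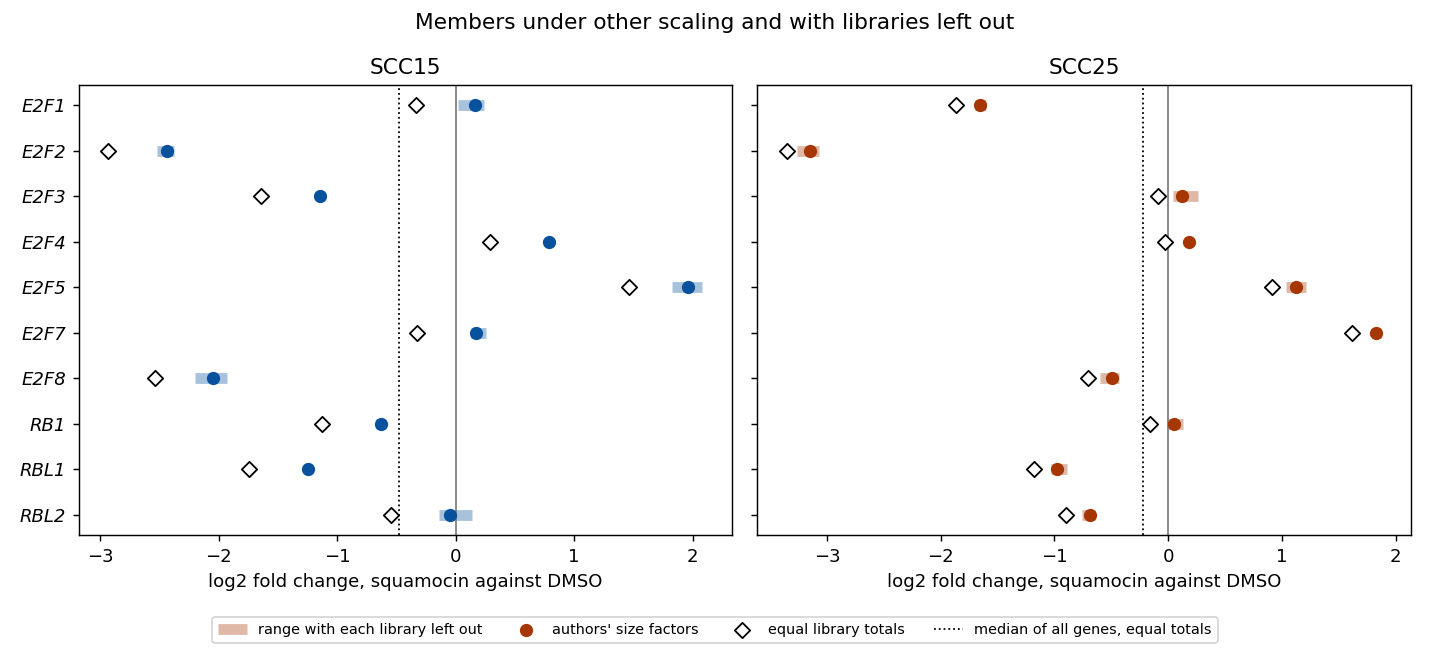
The log2 fold change of each member with the size factors of the deposited values (filled circles), over the fits that each leave out 1 library (shaded range) and with equal library totals (diamonds); the dotted line is the median of all genes with equal totals. Diamonds lie left of the circles in both lines, and E2F1 and E2F7 in SCC15 and E2F3, E2F4 and RB1 in SCC25 cross 0.

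Levels of different members were compared as normalized counts per kb of exonic length. E2F4 was first in all 4 groups, at 963 ± 9.33 (SD, n = 3) in SCC15 DMSO, 1661 ± 31.5 in SCC15 squamocin, 503 ± 11.8 in SCC25 DMSO and 570.3 ± 23.4 in SCC25 squamocin. E2F1 was second in both DMSO groups (613 ± 20.3 and 358 ± 12.9 per kb) and in SCC15 squamocin (692 ± 125). In SCC25 squamocin, E2F7 took the second place at 518 ± 27.1 per kb, while E2F1 stood behind RB1 and RBL2 at 114 ± 7.51 and overlapped with E2F3 at 109.9 ± 17.6. The lowest place was held by E2F5 in SCC15 DMSO (11.7 ± 1.98), E2F8 in SCC15 squamocin (6.92 ± 1.37) and E2F2 in both SCC25 groups (22.4 ± 0.87 and 2.37 ± 0.37). Neighbours whose libraries overlapped were RB1 with E2F7 and E2F7 with RBL2 in SCC15 DMSO, E2F7 with RBL2 and E2F5 with RBL1 in SCC15 squamocin, E2F7 with RBL1 in SCC25 DMSO, and E2F1 with E2F3 and RBL1 with E2F5 in SCC25 squamocin. The tables of the lines were normalized separately, so levels across them stand side by side with no test.

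Activators held similar shares of the E2F transcripts in the DMSO groups of both lines and lower shares with squamocin. They took 39.7% ± 0.64 (SD, n = 3) of the summed E2F level per kb in SCC15 DMSO and 39.96% ± 1.09 in SCC25 DMSO. With squamocin their share was 28.0% ± 3.02 in SCC15 and 15.96% ± 1.156 in SCC25. The share of the repressors went from 48.4% ± 0.28 to 63.0% ± 1.75 in SCC15. That of the atypical factors went from 15.6% ± 0.19 to 38.8% ± 0.42 in SCC25. Neither class gained in this way in the other line. The mean repressor share in SCC25 was 44.4% in DMSO and 45.2% with squamocin, with overlapping libraries. The mean atypical share in SCC15 was lower with squamocin, at 9.04% against 11.9% in DMSO. The summed E2F level per kb was itself higher with squamocin, 2712 ± 139 against 2013 ± 26.7 in SCC15 and 1412 ± 64.0 against 1204 ± 15.96 in SCC25. This sum and the summed levels that follow depend on the scaling of the libraries, whose total normalized counts were also higher with squamocin. The group medians of those totals were 20826159 against 15511759 in SCC15 and 21182014 against 18272805 in SCC25. As summed levels, the SCC15 activators stood at 800.4 ± 21.9 per kb in DMSO and 761 ± 123 with squamocin, with replicate 3 at 903 above the controls, and the repressors at 974 ± 9.79 and 1707 ± 39.3. In SCC25 the activators stood at 481 ± 14.3 and 226 ± 24.6 per kb, and the atypical factors at 188 ± 1.45 and 548 ± 26.4. The SCC25 repressors had means of 535 and 639 per kb, and the SCC15 atypical factors 239 and 244. SCC15 squamocin replicate 3 had the highest activator share of its group, 31.4%, with 25.9% and 26.5% in replicates 1 and 2. These shares are free of the scaling of the libraries, and no p is given for them. Among the pocket proteins, RBL1 went from 19.4% ± 0.35 to 11.2% ± 1.14 of their summed level per kb in SCC15 and from 23.8% ± 0.42 to 16.6% ± 1.20 in SCC25.

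The G1/S targets of E2F, a list of genes for DNA replication and its control that, like the other lists, was written with earlier results of these data known, fell more often than they rose. In SCC25, 36 of the 44 tested were lower and 3 higher, with a median log2 fold change of -1.16 against -0.01 over all genes. In SCC15, 25 of 44 were lower and 4 higher, with a median of -0.39 against 0.01. The counts of this and the other lists stand beside 30.9% of all genes called higher and 30.0% lower in SCC15, and 38.3% and 38.5% in SCC25. List counts with equal library totals stand beside other shares, 14.8% higher and 50.5% lower in SCC15, and 30.4% and 47.4% in SCC25. With 1 library left out, the SCC15 lower count ranged from 20 to 31. Without SCC15 squamocin replicate 3 the SCC15 counts were 31 and 6, without SCC15 DMSO replicate 2 the higher count was 2, and without SCC25 squamocin replicate 3 the SCC25 higher count was 6. Of the 44, 23 were lower in both lines (52.3%, with 18.6% over all genes). MCM2 and MCM3, subunits of the replicative helicase, fell most in SCC25, MCM2 from 3463 to 293 (-3.56, adjusted p = 6.53e-13 by limma) and MCM3 from 3959 to 619 (-2.68, adjusted p = 1.22e-13). In SCC15 the strongest falls were UHRF1, which reads methylated DNA behind the fork (-1.63), and the phosphatase CDC25A (-1.48). The genes that rose were the licensing factor CDT1 (0.76), the clamp loader RFC4 (0.64), SLBP (0.53) and POLA2 (0.40) in SCC15, and POLA2 (1.20), BARD1 (0.54) and RFC3 (0.34) in SCC25. With the size factors of the deposited values, POLA2, a subunit of DNA polymerase alpha, was the only target that rose in both lines. CDT1 and RFC4 fell in SCC25 (-0.9998 and -0.26). SLBP, RFC3, the SCC15 value of POLA2 and the SCC25 values of CDT1 and RFC4 are given after their values were seen. With equal library totals the medians of the list were -0.88 and -1.37, and the counts became 39 lower and 1 higher in SCC15, where the rise of RFC4 lost its call (0.14, adjusted p = 0.268 by limma), and 37 and 2 in SCC25. The 4 rises in SCC15 included that of POLA2, and at most 1 of the 4 can have kept its call in that setting.

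Mitotic genes with a CHR promoter element, which the DREAM complex of p130, p107 and E2F4 represses, gave another picture. In SCC25, 21 of 28 were higher and 4 lower (median 0.61, higher in 20 to 21 with 1 library left out), the lower count being 2 without DMSO replicate 1 or DMSO replicate 3. In SCC15, 10 were higher and 9 lower (median 0.03), and equal library totals turned the SCC15 counts to 3 and 18 and the SCC25 counts to 15 and 7. UBE2C, the ubiquitin-conjugating enzyme of the anaphase-promoting complex, rose in both, by 1.49 in SCC15 and 2.14 in SCC25. ASPM, a spindle pole protein, fell in both (-1.58 and -0.40), and CENPF, a kinetochore protein, fell in SCC15 (-1.44). BIRC5 (survivin) rose in SCC25 (1.88), where the spindle factor TPX2 fell slightly (-0.19). PRC1, which bundles midzone microtubules, rose in SCC15 (1.26, adjusted p = 0.0132 by limma), a call lost without DMSO replicate 3 (adjusted p = 0.0518) and with equal library totals (0.77, adjusted p = 0.12).

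CDK inhibitors, which keep the pocket proteins unphosphorylated, rose in 6 of 7 cases in SCC15 (median 1.26) and in 7 of 7 in SCC25 (median 1.49). CDKN1C (p57) went from 154 to 1964 in SCC15 (3.66, adjusted p = 2.72e-05 by limma), and CDKN1A (p21) from 832 to 5849 in SCC25 (2.81, adjusted p = 1.13e-13). CDKN2D (p19) rose in SCC15 (1.81) and CDKN1C in SCC25 (2.47). The exception was CDKN2C (p18), itself an E2F target, which fell in SCC15 (-0.87, adjusted p = 0.00807). With equal library totals 5 rose and 2 fell in SCC15, and 6 rose in SCC25.

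The DNA-binding partners moved less uniformly. TFDP2 (DP2) fell in both lines (-1.02 and -1.18), and E2F6, a repressor that needs no pocket protein, fell in SCC15 (-1.26). TFDP1 (DP1) was at 0.25 in SCC25 (adjusted p = 0.0122 by limma), a call that was lost without squamocin replicate 1 or 2 and with equal library totals (0.04, adjusted p = 0.615). Of the 3 tested, all fell in SCC15, and 1 rose and 1 fell in SCC25, or 0 and 2 with equal library totals or without squamocin replicate 2.

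Of the cyclins and kinases that act on RB, 1 of 8 rose and 2 fell in SCC15 (median -0.12), and 4 of 9 rose and 3 fell in SCC25 (median 0.07). CCNE2 fell in SCC15 (-1.92), and CCND2 (1.88) and CCNA2 (1.11) rose in SCC25. There the RB kinase CDK4 fell (-0.97), whereas the RB kinase CDK6, given after its value was seen, rose (0.91). CCND1, the cyclin D1 gene, fell in both lines (-0.46 and -0.17). CCNA2 also rose in SCC15 (0.33), where equal library totals turned it to -0.17. The SCC15 counts were 2 higher and 4 lower without squamocin replicate 3, 2 higher without squamocin replicate 1, and 0 higher without any 1 of the DMSO replicates. Equal library totals gave 0 higher and 6 lower in SCC15, and 3 and 4 in SCC25.

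In the MuvB core, the part that DREAM shares with activating complexes, and its MYB and FOXM1 partners, 1 of 8 rose and 3 fell in SCC15 (median -0.30), and 2 rose and 3 fell in SCC25 (median 0.14). MYBL1 rose in SCC25 (2.32, adjusted p = 5.29e-11 by limma), whereas MYBL2 (B-MYB), the cell-cycle member, fell there (-0.67). MYBL2 rose in SCC15 (0.41), a call lost without squamocin replicate 2 or any 1 of the DMSO replicates and turned to -0.09 by equal library totals. Without squamocin replicate 3, 5 were lower in SCC15 and 5 higher in SCC25, and without DMSO replicate 2 or 3, 1 was lower in SCC15. With equal library totals 0 rose and 6 fell in SCC15, and 1 rose and 3 fell in SCC25, where the median turned to -0.07. Of the core subunits, LIN9 (-0.82) and LIN54 (-0.37) fell in SCC15, and RBBP4 fell (-0.75) and LIN54 rose (0.35) in SCC25. The SCC15 call of LIN54 was lost without squamocin replicate 2 or DMSO replicate 2 or 3, and its SCC25 call with equal library totals (0.15, adjusted p = 0.104 by limma).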

How the data were processed

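RNA-seq libraries of SCC15 and SCC25 cells (3 squamocin and 3 DMSO each) were made by the authors with a NEBNext Ultra kit, aligned to GRCh38 with HISAT2 2.0.5 and counted with featureCounts 1.5.0-p3, per the submitters' processing notes and the study's methods. The deposited signal values are counts divided by 1 size factor per library, although the SCC25 headers name them FPKM; 100% of the values came out as whole reads, within 0.05 of a read. Deposited group means, fold changes and p-values of the authors' own comparison were not used. Genes with a mean of at least 10 were tested with limma 3.58.1 (trend) in R 4.3.3 on log2(value + 1), so fold changes of low genes are understated, with Benjamini-Hochberg adjustment over all genes tested in a line, and with a contrast of the 4 groups over genes tested in both. Alternatives were pseudocounts of 0.1 and 10, no filter, TMM factors, equal totals, count tests on the recovered reads with edgeR 4.0.16 or DESeq2 1.42.0, a replicate block, a fold limit and each library left out. The fits were tested on simulated data. Levels per kb used exonic lengths of GENCODE 44, since the tables gave none, in place of the planned table lengths. Protein features were not analysed here. Named were the 10 members, in each list the 2 largest rises and falls per line among called genes whose mean reached 100, and the gene most like each member (that of E2F3 is not reported here). The members and lists were chosen with earlier results of these data known.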

Additional observations from a re-analysis of the deposited data

Results flagged for a closer look

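The response to squamocin differed between the cell lines, by the limma contrast of the 4 groups, for 9 members. As the SCC15 minus the SCC25 log2 fold change, the activators gave 1.82 for E2F1, 0.71 for E2F2 and -1.26 for E2F3. The repressors gave 0.61 for E2F4 and 0.84 for E2F5, and the atypical factors -1.65 for E2F7 and -1.55 for E2F8. RB1 gave -0.68 and RBL2 0.64. With 3 libraries a group, single libraries were not tested as outliers.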

How the results depend on the processing

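With only changes of more than 1 on the log2 scale counted, 1 member was higher and 4 were lower in SCC15. In SCC25 2 were higher and 2 lower, and 4 differed between the lines. The share of all genes past this limit was not worked out, so these counts have nothing to be read against. With 1 library left out, the higher members ranged from 2 to 4 in SCC15 and from 3 to 5 in SCC25, the lower ones stayed at 5 in both, and those that differed ranged from 9 to 10. Over the same fits RBL2 in SCC15 ranged from -0.14 to 0.13 and RB1 in SCC25 from -0.0093 to 0.13. The counts of 4 and 5 came without squamocin replicate 3 of each line. Without it, 38% of all genes were called higher and 37.6% lower in SCC15, against 30.9% and 30.0% with all libraries. In SCC25 these shares were 38.9% and 39.8%, against 38.3% and 38.5%. Equal library totals reversed E2F1 (-0.34), E2F7 (-0.32), CCNA2 (-0.17) and MYBL2 (-0.0902) in SCC15, and E2F3 (-0.088), E2F4 (-0.028) and RB1 (-0.16) in SCC25, where the shift of all genes applies. RBL1 passed the test of a difference with TMM factors (-0.31, adjusted p = 0.0483), equal totals (-0.56, adjusted p = 0.00383) and edgeR (-0.32, adjusted p = 0.0322); the cause was not tested. The labels do not say whether same-numbered libraries belong together. Their deviations from the group means had correlations of -0.0511 to 0.0078, which cannot decide it with 3 libraries a group. A fit with the replicate block gave 2 higher and 5 lower members in SCC15 and 3 and 5 in SCC25. Over all genes it gave 4665 higher and 4451 lower in SCC15 and 6294 and 6317 in SCC25. No squamocin library correlated best with the DMSO library of its own number. Depth limits E2F2 in SCC25, with 11 to 12 reads a squamocin library, and E2F8 in SCC15, with 19 to 30.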

Other observations

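Outside the members, chromatin partners of the pocket proteins were lower in 5 of 12 cases and higher in 0 in SCC15 (limma; edgeR and DESeq2 on recovered reads each called 1 higher), and lower in 6 and higher in 3 in SCC25. With equal library totals the counts were 10 lower and 0 higher in SCC15, and 9 and 3 in SCC25. ARID4A, which binds RB1, and the remodeller ATPase SMARCA2 fell in SCC15 (-1.06 and -0.67), and SMARCA4, the ATPase of a chromatin remodeller, fell in SCC25 (-0.78), where SAP30 of the SIN3 complex and SIN3B rose (0.92 and 0.41) and SIN3A fell (-0.48). Without squamocin replicate 3 the higher count in SCC15 was 5, and without DMSO replicate 2 or 3 the lower count was 3.

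Among apoptosis genes known as E2F targets, 2 of 8 rose and 5 fell in SCC15, and 6 of 9 rose and 3 fell in SCC25. The BH3-only genes BBC3 (3.42 and 2.75) and PMAIP1 (1.67 and 2.39) rose in both lines, and CASP8AP2 fell in both (-1.06 and -0.79). APAF1, the core of the apoptosome, fell in SCC15 (-0.69). TP73, the p53 relative that E2F1 is known to induce, went from 980.3 to 101.5 normalized counts in SCC25 (-3.28, adjusted p = 1.38e-10 by limma). In feedback and turnover of E2F and RB, 3 of 8 rose and 4 fell in SCC15, and 2 rose and 4 fell in SCC25, with SKP2, a ligase subunit, lower in both (-0.99 and -0.42) and RYBP higher in both (0.55 and 1.39). PHB2 rose in SCC15 (0.66) and fell in SCC25 (-0.44), CCNF fell in SCC15 (-1.02), and MDM2 rose in SCC25 (0.80). With equal library totals 0 of this list rose and 5 fell in SCC15, where RYBP was at 0.05 (adjusted p = 0.579 by limma) and PHB2 at 0.17 (adjusted p = 0.128), and 2 rose and 6 fell in SCC25.

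The protein-coding gene most like a member over the 12 libraries, by Pearson's r of log2 values centred within each line, was CTSH for E2F1 (0.991), KCTD11 for E2F2 (0.997), MUS81 for E2F4 (0.996), POLR2C for E2F5 (0.991), NR1D2 for E2F7 (0.997), HEG1 for E2F8 (0.99), TMEM87B for RB1 (0.985), PARP9 for RBL1 (0.995) and BTAF1 for RBL2 (0.994). Each was the highest of 9697 or 9698 candidates, and the points share libraries and treatment, so r describes the pattern alone.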
